A study of Homo sapiens with 8 samples.

Results

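The machinery that cuts nascent transcripts, adds the poly(A) tail and ends transcription was examined as a set of 44 human genes, chosen by name: subunits of the cleavage and polyadenylation specificity factor (CPSF), the cleavage stimulation factor (CstF) and the cleavage factors CFI and CFII, poly(A) polymerases, poly(A)-binding proteins, factors at the C-terminal domain (CTD) of RNA polymerase II, the PNUTS-PP1 phosphatase, the RPRD proteins and the Integrator complex. All 44 were among the 19389 protein-coding genes analysed, and all 44 had at least 1 poly(A) peak in the 3′ UTR. Of these, 43 have an intron and were compared with 12742 protein-coding genes that have an intron and a 3′ UTR peak. Poly(A) 3′-seq was performed in Kelly WT cells, which come from a human neuroblastoma in which MYCN is amplified, and in Kelly E9R cells, a derivative selected under rising concentrations of the inhibitor E9 that carries a CDK12 mutation at the cysteine bound by THZ531. Each line was treated for 6 h with DMSO or with THZ531, which binds CDK12 and CDK13 covalently and inhibits them, at 400 nM according to the labels, whereas the study's methods name another concentration for these cells. With duplicates, this gives 8 libraries in 4 groups of 2.

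All reads of the 8 libraries were merged by the authors before peaks were called. The deposited list therefore holds 1 set of values per peak and 0 columns per library, so that neither the treatments nor the cell lines could be compared, and there are no replicates behind any value. The depth per library is unknown. The results describe which poly(A) sites of these genes were found when all 4 groups were pooled. Intervals are 95% Wilson intervals and cover counting error only. All 9 neuroblastoma markers examined, among them HAND2 and MYCN, had a 3′ UTR peak with a pileup of 39 to 121, whereas 7 of 9 markers of other cell types had none; COL1A1 and EPCAM were the exceptions, with a pileup of up to 16 and of 6.

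Most human genes carry more than 1 poly(A) signal, and the machinery described here decides which of them is used. CPSF reads the hexamer AAUAAA and cuts the transcript, CstF binds the sequence after the cut, and CFI binds UGUA elements before it. Termination then follows through factors that act on the CTD and through the exonuclease XRN2, while Integrator cuts the transcripts of small nuclear RNA genes and ends transcription early at many other genes. CDK12 and CDK13 phosphorylate the CTD during elongation. Several components of the machinery are known to regulate their own transcripts through alternative poly(A) sites.

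A peak marks where reads ended at a poly(A) tail, or at A-rich sequence inside a transcript from which the oligo(dT) primer can also start. The height of a peak is given as its pileup, the number of overlapping reads at the summit after extension to 100 bp, recovered from the deposited fold enrichment and p-value. How duplicate reads were handled was not stated. If the caller kept 1 read per position and strand, the pileup counts distinct positions and levels off in abundant transcripts, so it is not an expression level. The 3′ end of a peak was read on the strand of the gene, since the list carries no strand. A poly(A) signal (PAS) motif is AATAAA or any of 11 variants that differ from it in 1 base, namely TATAAA with CATAAA and GATAAA (at the first base), ATTAAA with AGTAAA and ACTAAA (at the second), AAGAAA (at the third), AATGAA (at the fourth), and AATATA with AATACA and AATAGA (at the fifth), in the 100 bases before this end; overlapping matches were allowed, and both strands were searched for comparison. Where a peak had several matches, AATAAA was named first, then ATTAAA, then the other variants, whatever their distance from the end. Of equal motifs, the nearest to the end was named. Sequence after a peak was called A-rich when the next 50 bases held 6 A in a row or 7 A among 10. Peaks with a stretch of 25 A (up to 3 mismatches) and no motif were removed, which took 18 of the 467 peaks of the 44 genes. Because reads that map to up to 20 places had been kept by the authors, near-identical copies elsewhere in the genome were counted for every peak and are named below for some of them.

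The sequences printed here show what peaks of the different kinds looked like, each read 5′ to 3′ from GRCh38 on the strand of the gene. Sequences of CPSF1, INTS8, INTS9, INTS10 and PABPC1 are not printed here, and every set was chosen among the other members. The first set gives, for each complex, the 30 bases that end at the strongest 3′ UTR peak of a member, among members whose motif lies within those bases; capitals mark the PAS motif.
INTS13 (chr12:26905049-26905078, reverse strand): aaTATAAAattttgcctattaagctgcatc
NUDT21 (chr16:56431676-56431705, reverse strand): atttgggggAATAAAaaatattagagcaaa
PAPOLA (chr14:96567091-96567120, forward strand): AATAAAaaaaaaacagcacaatctcacagt
FIP1L1 (chr4:53459642-53459671, forward strand): aaaAATAAAaagacagcaatgactttatat
PABPC4 (chr1:39560812-39560841, reverse strand): AATAAAgaaaaaaaatctccataaaactgc
PPP1CA (chr11:67398179-67398208, reverse strand): tgAATAAAggtcaaagctggattctcgcca
CLP1 (chr11:57661835-57661864, forward strand): tcattttAATAAAtatttttgccatatcat
SCAF8 (chr6:154834336-154834365, forward strand): gatAATAAAatattcttttaaatctggtag
RPRD2 (chr1:150474332-150474361, forward strand): ctATTAAAgaaagaaatatttgtctttatc
CSTF1 (chr20:56404235-56404264, forward strand): tAATAAAgctcagatctgcaactttattgt
AATAAA stands in 8 of these 10 sequences, and the motif starts between 21 and 30 bases before the peak end. INTS13 had TATAAA and RPRD2 had ATTAAA, both 28 bases before it.

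The second set ends at annotated last exons that lie upstream of the main 3′ UTR. It shows the strongest such peak of SSU72, WDR33 and SYMPK, whose motif, AATAAA in each, lies within the 30 bases.
SSU72 (chr1:1560859-1560888, reverse strand): ccttcAATAAAttttggccagttgtcctat
WDR33 (chr2:127735380-127735409, reverse strand): tcaAATAAAacttattatgtattggttttc
SYMPK (chr19:45818908-45818937, reverse strand): gctcAATAAAgacttcctggttgacactca

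The third set ends within introns. It shows the strongest intronic peak that had a PAS motif before it and was not followed by A-rich sequence, for the 8 members with the highest such peak among those whose motif lies within the 30 bases.
WDR33 (chr2:127785117-127785146, reverse strand): ATTAAAagaatgacaaactatggcattcat
INTS7 (chr1:211976835-211976864, reverse strand): taaaaaattaAATAAAtgtcattggaaaac
PAPOLA (chr14:96537873-96537902, forward strand): tccccaATTAAAaacaagaatgatgacctt
SSU72 (chr1:1559433-1559462, reverse strand): tattgaGATAAAatgtacaaatcatgcact
SYMPK (chr19:45830991-45831020, reverse strand): cctgttgtgtAGTAAAtgctactggctgtc
CPSF6 (chr12:69263539-69263568, forward strand): atattcaaATTAAAttaaggctaaacaaac
FIP1L1 (chr4:53397536-53397565, forward strand): aaaaggctcataataaaAATAAAaaatgca
CPSF3 (chr2:9457255-9457284, forward strand): acctaatAATAAAttaagggttcttattta
In 6 of the 8 genes the motif was AATAAA or ATTAAA; SSU72 had GATAAA and SYMPK had AGTAAA.

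The fourth set is the opposite case. It was chosen among intronic peaks that had no PAS motif and a run of at least 6 A in the 30 bases after them, which are printed for the strongest such peak of the 3 highest genes, with capitals marking the runs.
PPP1CB (chr2:28763450-28763479, forward strand): ggAAAAAAAAAAAgtcctttattcctgaaa
CPSF6 (chr12:69250604-69250633, forward strand): aaaagAAAAAAAAgaaaagaaataaaggaa
SCAF8 (chr6:154825667-154825696, forward strand): AAAAAAAAAAgcttttattattagaccatg
In all 3 the genome itself encodes a run of A within 5 bases of the peak end, a place where the primer could start on the transcript without a tail. Whether reads there came from such priming was not tested.

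Across the 44 genes, 449 peaks were retained: 101 in 3′ UTRs, 10 at other annotated transcript ends, 65 in exons, 255 in introns and 18 in the 4 kb after the gene. The classes differed in height. The median pileup was 21 in 3′ UTRs (quartiles 15 and 31, highest 78), 17 at other annotated ends, 15 in exons and after genes, and 10 in introns (quartiles 7 and 13, highest 32). Thus introns held most of the peaks but 42.3% of the summed pileup within the genes.

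**Figure D1:**
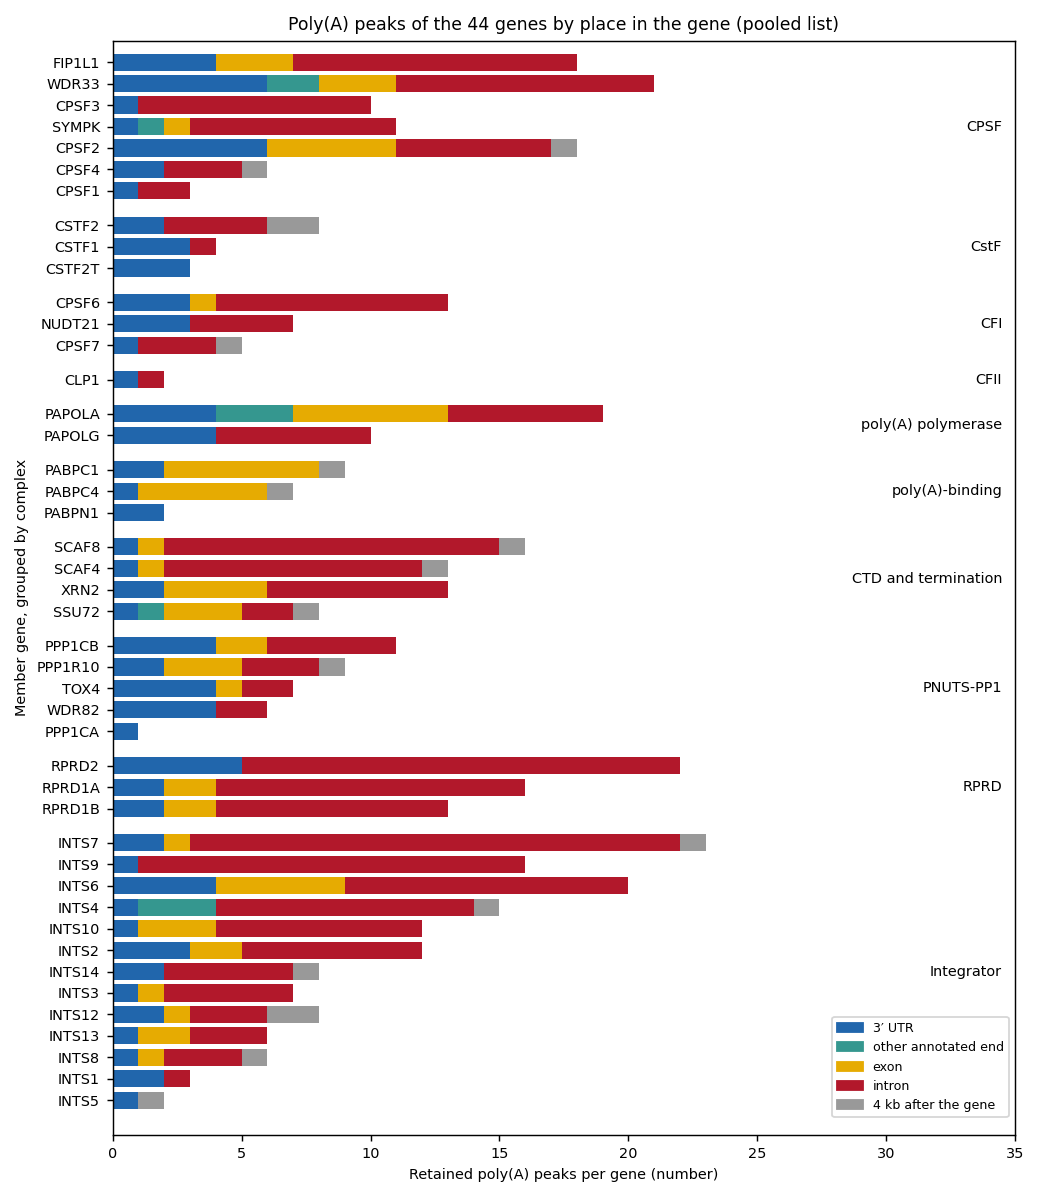
Number of retained poly(A) peaks (horizontal axis) in each of the 44 genes, grouped by complex and coloured by place in the gene. INTS7 holds 19 intronic peaks and RPRD2 17, whereas the 3 poly(A)-binding genes hold none.

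The classes also differed in sequence. A PAS motif preceded 90 of 101 3′ UTR peaks (89.1%, interval 81.5 to 93.8), compared with 83.0% of the 25364 3′ UTR peaks of all genes compared. These hexamers are common, so that the same search on the opposite strand found a motif at 66.3% of these peaks. A narrower search separated the strands: AATAAA or ATTAAA began 15 to 35 bases before the end at 50 of 101 3′ UTR peaks (49.5%) on the strand of the gene and at 4 (3.96%) on the other. At other annotated ends, this was the case for 7 of 10 peaks against 1. In introns, 46 of 255 peaks (18.0%, interval 13.8 to 23.2) had the placed hexamer on the strand of the gene and 3 (1.18%) on the other; over all genes compared, the shares were 15.6% and 4.08%.

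A-rich sequence followed 192 of 255 intronic peaks (75.3%) but 21 of 101 3′ UTR peaks (20.8%). Over all genes compared, the shares were similar, at 78.2% and 23.1%. The intronic share of the members was 24.3% when read on the opposite strand. Of the intronic peaks, 88 had both a PAS motif and A-rich sequence, 104 had A-rich sequence alone, 12 had neither, and 51 (20%, interval 15.6 to 25.3) had a motif without A-rich sequence and are here called clean. Over all genes compared, 16.2% of intronic peaks were clean, which lies within the interval of the members. The 51 clean peaks of the members lay in 25 genes. Their median pileup was 11, against 10 for the other intronic peaks. In 39 of the 51 peaks the motif was AATAAA or ATTAAA, and in 31 it began 15 to 35 bases before the peak end, the distance typical of 3′ UTR peaks.

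**Figure D2:**
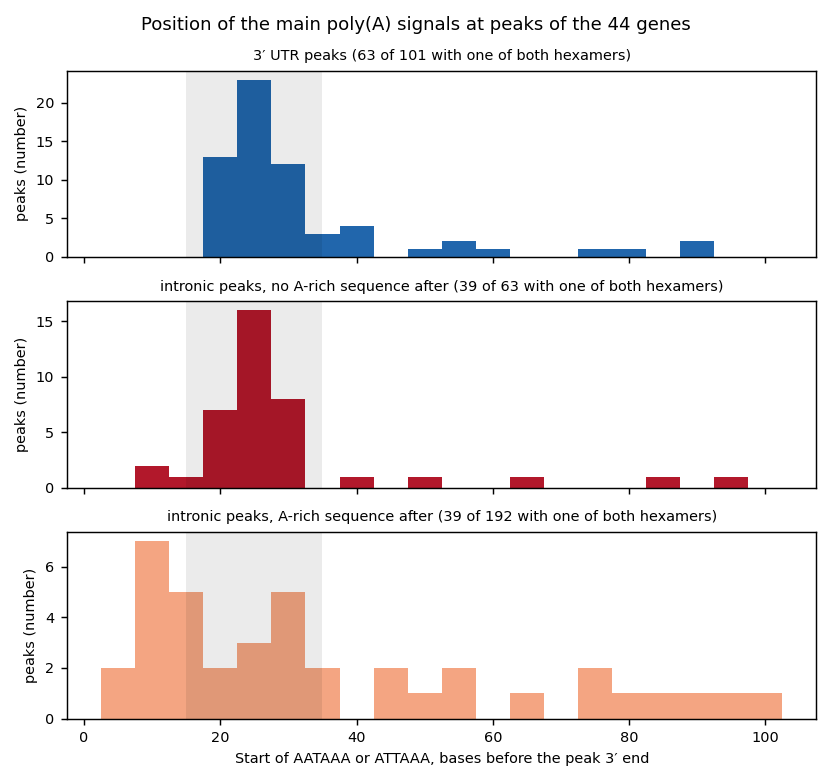
Start of AATAAA or ATTAAA in bases before the peak 3′ end (horizontal axis) against the number of peaks (vertical axis) for 3′ UTR peaks, for intronic peaks without A-rich sequence and for intronic peaks followed by A-rich sequence; grey marks 15 to 35 bases. The first 2 panels gather within the grey band, and the third is spread out.

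Of the 43 members with an intron, 38 had at least 1 intronic peak (88.4%, interval 75.5 to 94.9), compared with 75.6% of all genes and 84.6% over the same length bins. The number of intronic peaks rises with gene length, so each gene was ranked among 637 or 638 genes of similar length (20 bins). The 43 genes with an intron had a median length close to that of all genes compared, 34.7 kb for the 44 members and 31.1 kb overall. Of the 43, 22 had more intronic peaks than the median of their bin (51.2%, interval 36.8 to 65.4), compared with 38.3% of the 12742 genes; 10 had fewer (23.3%, against 33.2% of all genes) and 11 were equal. Over the length bins of the members, the share above the median was 41.2%, which lies within the interval of the members. The median rank was 56.0% for the members and 46.2% for all genes, and 14 of 43 ranked at or above 75%, compared with 22.6% of all genes. The 255 peaks compare with a sum of 208.9 over the means of their bins. Of the 255, 33 have near-identical copies elsewhere in the genome, 11 of them more than 20, and 16 overlap another gene.

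**Figure D3:**
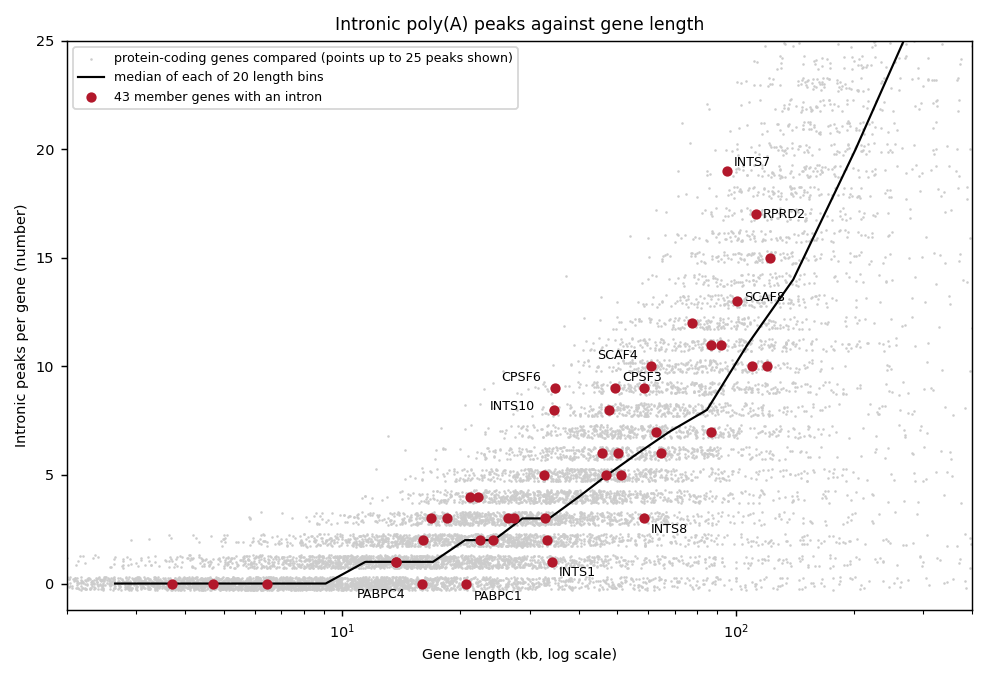
Intronic peaks per gene (vertical axis) against gene length in kb (horizontal axis, log scale) for the 43 members with an intron (red), the protein-coding genes compared (grey, jittered vertically by up to 0.3) and the median of each of 20 length bins (line). INTS7, RPRD2, SCAF4, CPSF6, CPSF3 and INTS10 lie above the line, and PABPC1, PABPC4, INTS1 and INTS8 below it.

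Clean peaks were found in 25 of 43 members (58.1%, interval 43.3 to 71.6), compared with 45.4% of all genes and 50.6% over the same length bins. They were spread along the genes, from 0.726 to 97.2 kb after the start with a median of 26.1 kb. Of the 50 that lay in introns of the canonical transcript, 6 were in the first intron (12%, interval 5.62 to 23.8), whereas first introns made up 21.99% of the intron length. Of all 254 intronic peaks in canonical introns, 62 were in the first (24.4%, interval 19.5 to 30.05). Introns with a peak were long, with a median of 4724 bp, against 857 bp for introns without. Peaks were found in 150 of 653 introns.

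CPSF recognises the poly(A) signal and holds the nuclease. Its 7 genes carried 49 intronic peaks, and 6 of the 7 exceeded the median of their length bin, compared with 38.3% of all genes. CPSF3, the endonuclease that makes the cut, had 9 intronic peaks (bin median 5, rank 93.0%), 3 of them with a motif and 1 clean. Its 3′ UTR peak had a pileup of 36. SYMPK, the symplekin scaffold, had 8 (bin median 5, rank 87.1%), 3 of them clean, in introns 7, 12 and 13 of 26. CPSF4, the zinc-finger subunit that contacts the signal together with WDR33, had 3 (bin median 1, rank 84.4%). All 3 peaks of CPSF4 overlap the full record of PTCD1, a gene on the other strand, but lie outside its basic transcripts. None had a PAS motif, all were followed by A-rich sequence, and 2 have near-identical copies elsewhere.

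The other CPSF genes lay nearer to their bins. FIP1L1, which binds U-rich sequence and tethers poly(A) polymerase, had 11 intronic peaks (bin median 8, rank 71.9%), 2 of them clean. CPSF1, the largest subunit, had 2 (bin median 1), both clean and both in intron 2 of 37. Its only 3′ UTR peak, with a pileup of 23, had no motif on its strand and also overlaps the 3′ end of ADCK5 on the other strand, so the gene of origin cannot be told apart. CPSF2, the inactive partner of CPSF3, had 6 (bin median 5), with both clean peaks in intron 9 of 15.

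WDR33, the subunit that binds AAUAAA directly, combined 6 3′ UTR peaks, 2 peaks at other annotated ends, 3 exonic and 10 intronic peaks. The intronic count was close to that of its bin (median 11, rank 42.4%). A clean peak in intron 1 of 21 (chr2:127785117-127785257, 26.1 kb after the start) had the highest pileup of all 255 intronic peaks, 32, with a fold enrichment of 19.1. The strongest 3′ UTR peak of the gene reached 40 and the peak at the end of the longest 3′ UTR 24. A peak of 38 lay in the last exon of the short transcript WDR33-204, which ends in intron 7, and a further peak of 14 stood 39 bp from its annotated end. The end of WDR33-202 carried a pileup of 20. Within WDR33, sites far upstream of the main 3′ UTR thus fell in the same range as sites within it.

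**Figure D4:**
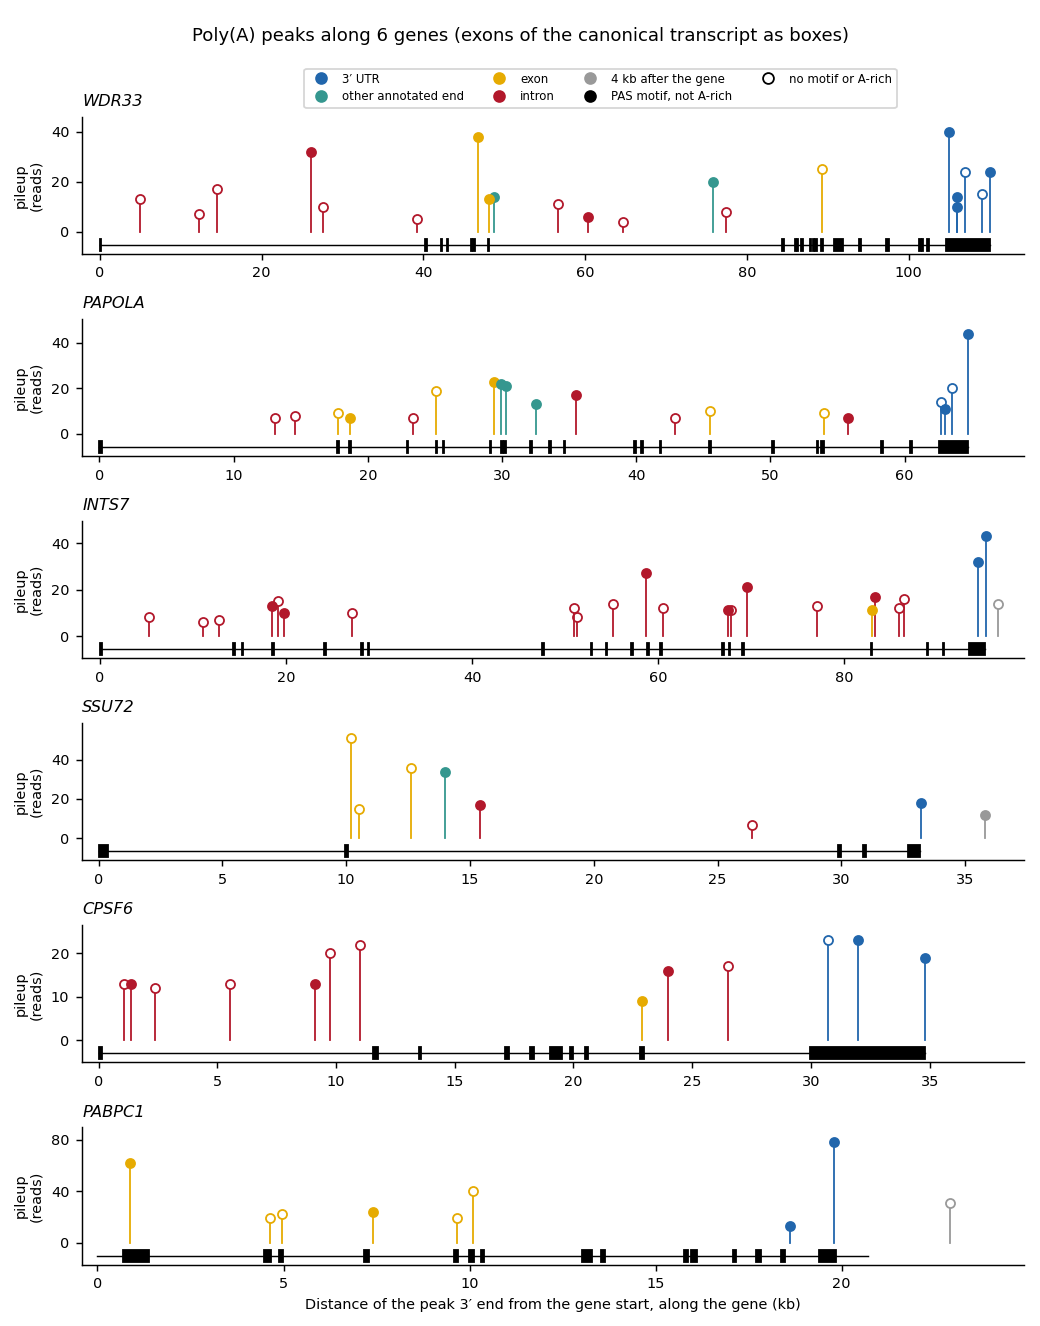
Pileup in reads (vertical axis) of each retained peak against its distance from the gene start in kb (horizontal axis) for WDR33, PAPOLA, INTS7, SSU72, CPSF6 and PABPC1; boxes are exons of the canonical transcript, and filled circles are peaks with a PAS motif that are not followed by A-rich sequence. In SSU72 an exonic peak of 51 stands above the 3′ UTR peak of 18, and in INTS7 intronic peaks are spread over the gene.

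CstF binds the sequence after the cut. CSTF2, its RNA-binding subunit, had 4 intronic peaks (bin median 2, rank 89.5%), all with a motif and 1 of them clean. CSTF1, the WD-repeat subunit, had 1, equal to its bin (rank 51.0%), and 3 3′ UTR peaks of 17, 19 and 19. CSTF2T, an intronless paralogue of CSTF2 that lies within an intron of PRKG1 on the opposite strand, was not ranked; its 3 3′ UTR peaks had pileups of 29, 19 and 14, with the highest 1736 bp before the annotated end.

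CFI sets the choice between poly(A) sites through UGUA elements. CPSF6, its larger subunit, had 9 intronic peaks against a bin median of 3, the highest rank of all members (98.8%). Of these, 3 were clean: pileups of 13 and 13 in intron 1 and 16 in intron 9 of 9. Its 3 3′ UTR peaks reached 23, 23 and 19, above all 3 clean peaks. Intronic peaks of 20 and 22 lay within the 3′ UTR range, but both were followed by A-rich sequence. The peak of 20 also has 433 near-identical copies elsewhere, and the peak of 22 had no motif. NUDT21, the subunit that binds UGUA, had 4 intronic peaks (bin median 2, rank 89.5%). All 4 had a motif but were followed by A-rich sequence. Its 3 3′ UTR peaks had pileups of 21, 46 and 23, the highest of them 2543 bp before the annotated end. CPSF7, the alternative to CPSF6, was equal to its bin with 3 intronic peaks (rank 56.0%), none with a motif, and had a high 3′ UTR peak of 58. CLP1, the kinase subunit that stood for CFII, had 1 intronic peak, equal to its bin, with a pileup of 19 that lies also within the non-coding gene MIR130AHG.

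Poly(A) polymerases add the tail. PAPOLA, the main nuclear enzyme, had 6 intronic peaks (bin median 7, rank 40.3%) and, beside them, 3 peaks at other annotated ends. Those at PAPOLA-225 reached 22 and 21 and that at PAPOLA-223 reached 13, and an exonic peak of 23 lay in the last exon of PAPOLA-225. All of these stand between 29.4 and 32.5 kb after the start, in the middle of a gene of 64.7 kb. The last 3′ UTR peak was higher, at 44. PAPOLG, a paralogue of PAPOLA, had 6 intronic peaks (bin median 5, rank 64.9%), none of them clean. Its strongest intronic peak (16) exceeded its strongest 3′ UTR peak (13), but the sequence of that peak has 919 near-identical copies in the genome and was followed by A-rich sequence.

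Poly(A)-binding proteins cover the tail. PABPN1, PABPC1 and PABPC4 had 0 intronic peaks, as had INTS5, PPP1CA and the intronless CSTF2T. PABPC1, the main cytoplasmic poly(A)-binding protein, had the lowest rank of all members (8.10%, bin median 2), and PABPC4, a related cytoplasmic protein, ranked next (12.5%, bin median 1). PABPN1, which coats the growing tail in the nucleus, is short (4.71 kb), and its bin median was also 0. Exonic peaks were instead frequent, 6 in PABPC1 with a pileup of up to 62 and 5 in PABPC4 with up to 39. In both genes 1 of them lay in the 5′ UTR in the first exon. PABPC1 is known to control its own translation through an A-rich tract in its 5′ UTR. Its peak there (62) had TATAAA before it and no A-rich sequence after it by the present definition, whereas the one in PABPC4 (37) was followed by A-rich sequence.

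PABPC1 and PABPN1 had the highest 3′ UTR peaks of the 44 genes. The last 3′ UTR peak of PABPC1 reached 78, the highest of all 101, although its sequence has 12 near-identical copies elsewhere and reads could be shared with them. PABPN1 had 2 peaks of 64 and 51, the higher lying 778 bp before the annotated end. In PABPC4, 32 reads at the 3′ UTR peak stood below 39 at an exonic peak in exon 6. PABPC4-AS1, a non-coding gene on the other strand, covers this exon, so the gene of origin of that peak cannot be told apart.

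Factors at the CTD and in termination had 32 intronic peaks in 4 genes. SCAF4 and SCAF8 bind the phosphorylated CTD and are known to prevent the use of early poly(A) sites. SCAF4 had 10 intronic peaks (bin median 6, rank 89.2%), 9 of them with a motif and 4 clean, in introns 1, 16 and 19 of 19. SCAF8 had 13 (bin median 11, rank 63.6%), 3 with a motif and 1 clean. The paralogues therefore had similar numbers of intronic peaks but differed in how many carried a motif. XRN2, the exonuclease that degrades the downstream RNA, had 7 (bin median 8, rank 37.7%) and 4 exonic peaks of up to 23.

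SSU72, the CTD phosphatase that acts with symplekin, showed the reverse order of sites. It had 2 intronic peaks, below its bin (median 3, rank 27.7%). The annotated end of the short transcript SSU72-202, 14.0 kb after the start, had a pileup of 34, and its last exon held peaks of 51, 15 and 36. The 3′ UTR of the full-length transcript, 33.2 kb after the start, had a single peak of 18 with AATAAA 23 bases before the end. All 4 peaks of the short transcript lay upstream of a clean intronic peak of 17 in intron 2 of 4. The peak of 51 overlaps coding exon 2 and had no motif. Of the 3 exonic peaks, only 1 had a motif, and that peak was followed by A-rich sequence.

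PNUTS-PP1 dephosphorylates the elongation factor SPT5 and RNA polymerase II near the poly(A) site. Of its genes, only PPP1R10, which encodes PNUTS, exceeded its bin, with 3 intronic peaks (bin median 1, rank 84.4%). TOX4 and WDR82, which bind PNUTS, were equal to theirs with 2 each (ranks 52.2% and 46.3%), and the short phosphatase gene PPP1CA was equal with 0. PPP1CB, a further catalytic subunit, had 5 (bin median 6, rank 40.9%). Its strongest intronic peak, of 26 in intron 1 of 7, exceeded its 3′ UTR peaks of 15, 24, 20 and 24, and is the site printed above with a run of A after it. PPP1CB, TOX4 and WDR82 had 4 3′ UTR peaks each. The 4 peaks of WDR82 summed to 132, the largest sum of the 44 genes.

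The RPRD proteins bind the CTD and bring a phosphatase to it. All 3 exceeded their bins, compared with 38.3% of all genes. RPRD2 had 17 intronic peaks (bin median 11, rank 86.2%). RPRD1B had 9 (bin median 6, rank 82.9%) and RPRD1A had 12 (bin median 8, rank 80.03%). Clean peaks numbered 1, 2 and 2. In RPRD1A the last intron (intron 6 of 6) held clean peaks of 22 (chr18:36024537-36024708) and 18, both above its 3′ UTR peaks of 14 and 15.

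Integrator contributed 13 genes and 90 intronic peaks, of which 18 were clean. Its members were spread over the whole range, with 6 above their bin, 3 below and 4 equal. Over all genes, 38.3% were above their bin and 33.2% below. INTS10 had 8 intronic peaks (bin median 3, rank 96.8%) and INTS7, a helical-repeat subunit, had 19 (bin median 11, rank 93.6%), the most of all 44 genes. Of the 19 in INTS7, 16 had a motif and 6 were clean, the largest number in any member. The highest, of 27 in intron 11 of 19 (chr1:211976835-211976953), compares with 43 and 32 at its 3′ UTR peaks. INTS14 (5, bin median 3, rank 79.4%), INTS6 (11, bin median 8, rank 71.9%), INTS12 (3, bin median 2) and INTS9 (15, bin median 14), the partner of the Integrator nuclease, also exceeded their bins. Of these, INTS14, INTS12 and INTS9 had 0 clean intronic peaks. All 3 intronic peaks of INTS12 overlap the full gene record of ARHGEF38 on the other strand, so their gene of origin cannot be told apart. They lie outside the span of its basic transcripts.

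At the lower end, INTS1, the largest subunit, had 1 intronic peak (bin median 3, rank 14.1%), INTS8, which recruits protein phosphatase 2A, had 3 (bin median 6, rank 19.9%), and INTS4 had 10 (bin median 11, rank 42.4%). Of the 10 in INTS4, 5 overlap AAMDC on the other strand, and several have near-identical copies elsewhere. INTS2, INTS3, INTS5 and INTS13 were equal to their bins with 7, 5, 0 and 3. INTS8 showed that few intronic peaks did not mean weak ones, since a clean peak in intron 22 of 26 reached 20. INTS1 had weak 3′ UTR peaks of 9 and 11, the latter equal to its only intronic peak.

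Short transcripts of Integrator genes also had peaks. In INTS4, the end of INTS4-204, 7.70 kb after the start, had a pileup of 25, and a clean peak of 27 lay in intron 4 of 22 (chr11:77977279-77977429), against 32 at the 3′ UTR. INTS6 had 4 exonic peaks of 36, 15, 12 and 14 in the last exon of the short transcript INTS6-203, all within 7.06 kb of the start. The highest of these was above all 4 of its 3′ UTR peaks (11, 17, 14 and 18). However, INTS6 had 0 peaks at other annotated transcript ends, and the exonic peak of 14 lay 9725 bp from the nearest annotated end. Of all 5 exonic peaks of INTS6, 3 had a motif without A-rich sequence. In INTS12 an intronic peak of 17 in intron 1 stood above 3′ UTR peaks of 15 and 14, with A-rich sequence after each of the 3. INTS13 had 2 clean peaks of 7 and 8, far below its 3′ UTR peak of 48.

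Over all 43 members, 5 (11.6%, interval 5.07 to 24.5) had an intronic peak at least as high as the strongest 3′ UTR peak, namely INTS1, INTS12, PAPOLG, PPP1CB and RPRD1A, compared with 15.2% of all genes. An exonic peak at least as high was found in 4 (9.30%, interval 3.68 to 21.6), compared with 6.47%: INTS6, PABPC4, SSU72 and, with 23 against 22, XRN2. Among the 5 genes of the first group, the intronic peak was clean only in RPRD1A and was followed by A-rich sequence in the other 4.

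**Figure D5:**
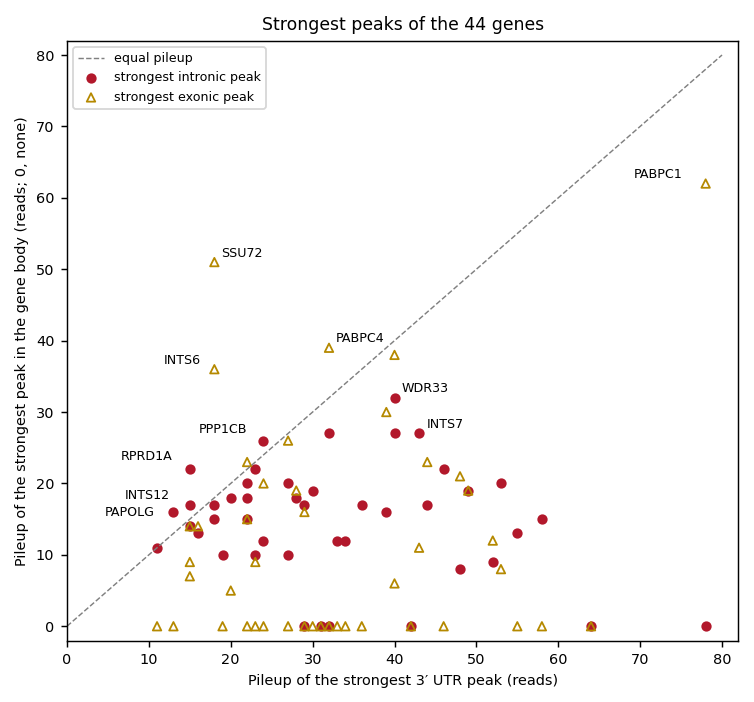
Pileup in reads of the strongest intronic (red circles) and strongest exonic peak (open triangles) of each of the 44 genes (vertical axis) against that of its strongest 3′ UTR peak (horizontal axis); the dashed line marks equal pileup. RPRD1A, INTS12, PAPOLG and PPP1CB lie above the line by their intronic peaks, and SSU72, INTS6, PABPC4 and XRN2 by their exonic peaks.

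At least 1 peak at another annotated transcript end was found in 5 of 43 members (11.6%), compared with 12% of all genes: INTS4, PAPOLA, SSU72, SYMPK and WDR33. That share is close to the background. All but 1 of the 10 peaks had AATAAA on the strand of the gene. The exception, in INTS4, has 3 near-identical copies elsewhere, and another INTS4 peak, with AATAAA, has 2. Exonic peaks were present in 25 of 43 members (58.1%, interval 43.3 to 71.6), compared with 40.2% of all genes and 44.3% over the same length bins. Of the 65, 53 overlapped coding sequence, 3 lay in 5′ UTRs and 9 in exons of other transcripts, and 12 of the 65 were in the last exon of a shorter transcript (INTS2, INTS6, PAPOLA, SCAF4, SSU72 and WDR33). A-rich sequence followed 35 of the 65 (53.85%), compared with 66.1% of exonic peaks over all genes compared.

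Tandem 3′ UTR peaks, meaning 2 or more, were found in 27 of 44 members (61.4%, interval 46.6 to 74.3), compared with 56.1% of 13041 genes with a 3′ UTR peak, and 3 or more in 15 (34.1%, interval 21.9 to 48.9), compared with 26.3%. CPSF2 and WDR33 had 6 each and RPRD2 had 5. FIP1L1, INTS6, PAPOLA, PAPOLG, PPP1CB, TOX4 and WDR82 had 4 each, and CPSF6, CSTF1, CSTF2T, INTS2 and NUDT21 had 3 each. The first and the last peak were a median of 2025 bp apart, against 1456 bp over all genes with tandem peaks. In CPSF2 this distance was 9997 bp: pileups ran 21, 29, 16, 29, 9 and 10 from the first peak to the last, so that its upstream 3′ UTR sites were the higher ones.

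An upstream peak exceeded the last in 11 of the 27 (40.7%, interval 24.5 to 59.3), compared with 54.3% of 7318 genes with tandem peaks. In TOX4 the order was 52, 31, 17 and 15, in FIP1L1 28, 39, 19 and 29, and in PAPOLG 13, 13, 9 and 11. The reverse held in PAPOLA (14, 11, 20 and 44) and WDR82 (21, 23, 33 and 55). RPRD2 was nearly flat at 21, 22, 13, 20 and 22. Some of these peaks also overlap a gene on the other strand, METTL3 in the last 3 peaks of TOX4, LNX1 in all 4 of FIP1L1 and SFT2D3 in 3 of WDR33.

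Peaks in the 4 kb after the gene were found in 16 of 43 members (37.2%, interval 24.4 to 52.1), compared with 26.6% of all genes. Of the 18 peaks, 12 overlapped another gene, and 8 of these lay at the 3′ end of a protein-coding gene. The highest, of 52 after SCAF4, lies at the 3′ end of SOD1 on the other strand, and those after CPSF4 (41) and INTS14 (38) at the 3′ ends of ATP5MF and HACD3. Without peaks that overlap another gene, 6 of the 18 remained. A peak of CPSF2 and one of CSTF2 were among them, with AATAAA 23 and 24 bases before the end. The peak of CSTF2 was followed by A-rich sequence, and that of CPSF2 was not.

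Further genes of the same pathway that are not among the 44 were checked as a list of 20. All 20 were found, 19 had a 3′ UTR peak and 18 were ranked. Of the 18, 8 were above the median of their bin, 6 below and 4 equal, with a median rank of 51.6%. Over all genes, 38.3% were above the median of their bin and 33.2% below. PCF11, the CFII subunit that binds the CTD, had 5 intronic peaks (bin median 3, rank 86.7%), 2 of them clean, and PPP1CC, the PP1 paralogue left out of the 44, had 4 (bin median 2). RPAP2 had 17 (bin median 11), whereas SUB1 had 3 (bin median 7) and LSM11 0 (bin median 1). CSTF3 had a peak at another annotated end with a pileup of 25, next to 23 at its 3′ UTR. RBBP6 had 7 exonic peaks of up to 38, above its 3′ UTR peak of 18. Of the 7, 6 had a motif, but only 1 had a motif without A-rich sequence. ZC3H14, a nuclear poly(A)-binding protein, had 12 3′ UTR peaks.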

How the data were processed

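Poly(A) 3′-seq libraries (QuantSeq 3′ REV) had been made from 8 samples in 4 groups. The authors trimmed reads with BBDuk, mapped them with STAR (2.5.1b per the labels) to GRCh38 with ERCC spike-ins, kept reads with up to 20 locations, merged all libraries and called peaks with MACS2 (2.1.1). The deposited list holds 153624 peaks, each with a fold enrichment (a ratio of pileup to local background), and with the p-value and q-value of the summit on a −log10 scale as deposited; the positions are on GRCh38, counted here from 1. It has 0 columns of values per sample, so no depth per sample is known and no test was run. Handling of duplicate reads is not given in the sources used here.

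Whole pileups were recovered from fold and p for 100% of peaks on chromosomes 1 to 22, X and Y (p within 0.001), with a median of 9 and a range of 3 to 187. GENCODE 44 basic transcripts without readthrough defined each gene span. Peaks were placed by an overlap of at least 1 bp, in this order: 3′ UTR, including 200 bp before to 600 bp after a transcript end; other transcript ends with the same window; exon; intron; 4 kb after the gene. A peak can count for more than 1 gene. Overlap with another gene was judged on full gene records, which can extend beyond the basic transcripts. Each member was ranked by its intronic count among genes with an intron and a 3′ UTR peak in 20 length bins; ties share the middle rank. Other loci were found with BLAST+ (2.17.0+) from the last 100 bases of a peak, at 95% identity over 90% of the length. Pileup recovery, placement and ranks were tested on simulated data. Python 3.11.15, pandas 2.3.3 and matplotlib 3.10.9 were used.

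The 44 genes, the further lists and the rules were chosen with earlier results of these data known. Members named with values are, by complex, those of highest and lowest rank, the 5 highest and 5 lowest ranks, the 5 largest 3′ UTR pileup sums, and those with 3 or more 3′ UTR peaks, a peak at another annotated end, a clean intronic peak or an intronic peak above every 3′ UTR peak; exonic peaks, peaks after genes and the sequences at other ends and A runs were chosen after their values were seen. Coverage tracks were not used here. Values of some single genes of the further lists are not reported here.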

Additional observations from a re-analysis of the deposited data

How the results depend on the processing

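No paired analysis was possible because the list holds no values per library. Of 70 recomputed values, 56 stayed within 1.5 times the main count or within the interval of the main share. The number of members above the median of their length bin ranged from 17 (only peaks with a PAS motif) to 30 of 43 (bins built from all protein-coding genes with an intron, of which 36% were above), and the number with tandem 3′ UTR peaks from 19 to 27. The members' share stayed above that of all genes in each of the 11 alternatives. The share over the members' own length bins was not recomputed for these. In the main count that share was 41.2%, within the interval of the members (36.8 to 65.4%). The bins that gave 30 also include genes without a 3′ UTR peak, whereas every member has such a peak. A threshold of 10 on −log10 q left 71 intronic peaks, 17 clean intronic peaks, 29 exonic peaks and 7 peaks after genes; 6 after genes remained without those overlapping another gene. The share of 3′ UTR peaks with a motif was 62.4% for AATAAA and ATTAAA alone and 76.2% within 50 bases. The intronic share of the summed pileup left its interval (41.1 to 43.5%) under each alternative: 38.7% with all GENCODE transcripts, 43.9% with no peak removed, 39.7% and 28.7% at thresholds of 5 and 10 on −log10 q, 46.3% by summits, 47.2% without peaks overlapping another gene, and 40.9% without peaks that have near-identical copies, a choice made after seeing the data. The cause of these shifts was not tested. The depth per library is unknown, and since the libraries were pooled, a site of 1 group and a site shared by all groups cannot be told apart.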
